A study of Mus musculus with 6 samples.

Results

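Troponins, tropomyosins, skeletal actin and alpha-actinin 3 build the thin filament of striated muscle and the disc that anchors it. They were examined in RNA of the inner ear's hearing organ, the cochlea, through all probe sets annotated to exactly 1 of 10 genes: Tnnt1, Tnnt3, Tnni1, Tnni2, Tnnc1, Tnnc2, Tpm1, Tpm2, Acta1 and Actn3. These 10 genes had 17 probe sets, out of 22626 probe sets and 12393 genes with a symbol of their own on the array. The mice were DBA/2J males, of an inbred strain known for early hearing loss, and 3 cochlea samples came from 36-week-old and 3 from 7-week-old animals. All mice were untreated, housed under a 12:12 light and dark cycle, and each sample was hybridised to 1 Affymetrix array. The labels do not state the number of animals behind a sample, so p-values measure only the spread between these samples.

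In striated muscle, actin polymers carry tropomyosin along their length, and troponin sits on tropomyosin. Troponin C binds calcium, troponin I holds the filament in its off state and troponin T ties the complex to tropomyosin, so that calcium release frees the myosin binding sites. Fast and slow muscle fibres use different troponin genes. Tnnt3, Tnni2 and Tnnc2 are the fast forms and Tnnt1, Tnni1 and Tnnc1 the slow forms, of which Tnnc1 also serves the heart. Actn3, the alpha-actinin of fast fibres, crosslinks actin at the Z-disc. Acta1 is the actin of skeletal muscle, and Tpm1 and Tpm2 encode alpha and beta tropomyosin, whose transcripts are also spliced into forms of smooth muscle and non-muscle cells. The organ of Corti, the spiral ganglion and the lateral wall hold no skeletal muscle fibres, while the stapedius and tensor tympani muscles lie beside the cochlea in the middle ear.

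All 10 genes were lower in the cochlea at 36 weeks than at 7 weeks. By their brightest probe sets the log2 differences ran between -3.36 for Tnnt1 and -0.59 for Tpm2, with a median of -1.68, against a median of 0.02 over all 13575 tested probe sets. The 3 fast troponins and Acta1 had log2 differences between -1.94 and -1.65, and the 3 slow troponins between -3.36 and -1.90. Of the 17 probe sets, 16 were bright enough to be tested, and 14 of these passed the test in the direction of lower and 0 in the direction of higher. The test was limma's moderated test with Benjamini-Hochberg adjustment over all tested probe sets and a threshold of 0.05, under which 17.7% of all tested probe sets were lower at 36 weeks, 16.7% were higher and 34.4% passed in either direction. In 13 of the 16 tested probe sets every array of 36 weeks lay below every array of 7 weeks, which held for 24.1% of all tested probe sets. Tnnt1 and Tnni1 passed the filter on dim probe sets through their 7-week signal alone, so their place among the tested ones already required a difference.

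Promoter windows from RefSeq (build GRCm38.p6) are shown for Acta1, the skeletal actin, for the fast and slow troponin C genes, and for Tnnt1, which had the largest fall. Each is the 250 bases before the annotated start, written 5′ to 3′ on the gene's strand. RefSeq windows matched 7 of the 10 genes, and none was matched for Tnnt3, Tnni2 and Actn3. Capitals mark matches, on either strand, to the CArG box bound by serum response factor or the MEF2 site. They also mark the letters CATTCC (the core bound by TEAD factors) and TATAAA (letters found in some core promoters).
Acta1, chr8:123894776-123895025, minus strand: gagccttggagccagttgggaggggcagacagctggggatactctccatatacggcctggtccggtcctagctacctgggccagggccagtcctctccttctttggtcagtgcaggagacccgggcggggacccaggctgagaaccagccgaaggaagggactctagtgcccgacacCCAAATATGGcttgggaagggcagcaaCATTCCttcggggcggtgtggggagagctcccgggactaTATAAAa
Tnnc2, chr2:164779735-164779984, minus strand: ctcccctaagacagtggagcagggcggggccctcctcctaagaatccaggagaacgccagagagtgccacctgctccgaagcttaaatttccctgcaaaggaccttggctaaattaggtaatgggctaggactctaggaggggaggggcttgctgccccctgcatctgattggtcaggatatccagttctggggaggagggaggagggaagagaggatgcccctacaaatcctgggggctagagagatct
Tnnc1, chr14:31208062-31208311, plus strand: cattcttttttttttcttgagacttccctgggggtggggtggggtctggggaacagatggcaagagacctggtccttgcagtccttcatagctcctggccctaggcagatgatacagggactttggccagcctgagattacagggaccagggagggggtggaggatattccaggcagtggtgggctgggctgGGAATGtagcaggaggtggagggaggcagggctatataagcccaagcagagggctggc
Tnnt1, chr7:4515976-4516225, minus strand: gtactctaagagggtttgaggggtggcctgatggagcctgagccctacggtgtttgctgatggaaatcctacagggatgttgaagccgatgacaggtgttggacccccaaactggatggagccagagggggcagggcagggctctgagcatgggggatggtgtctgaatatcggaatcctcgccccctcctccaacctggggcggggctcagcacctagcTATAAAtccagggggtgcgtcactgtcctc

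Of the 7 genes with a window, 1 (Acta1) held a CArG box, at -73 to -64 from the start, against 1.47% of 32851 windows of the same length. The letters CATTCC were found for 3 genes (Acta1, Tnnc1 and Tpm1) and in 12.6% of all windows. TATAAA was found for 2 genes, Acta1 at -7 to -2 and Tnnt1 at -30 to -25 from the annotated start, and in 12.4% of all windows. A MEF2 site was held by 0 of the 7 and by 2.92% of all windows. The letters CANNTG, an E-box of the kind bound by myogenic factors, were in the windows of all 7 genes and in 66.2% of all windows; they are not in capitals. In the 4 windows printed, no marked match overlapped another.

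The fast troponin genes were measured far above the middle of each array and varied little between arrays of an age. Tnnt3, fast troponin T, had signals of 6143, 5536.8 and 5365.4 on the arrays of 36 weeks, against 17963.2, 18610 and 17505 on those of 7 weeks. Tnni2, fast troponin I, had signals of 6829.6, 7264.4 and 7279.6 at 36 weeks, against 28283.3, 27964.6 and 26131.7 at 7 weeks. For both genes the highest 36-week array was well under the lowest 7-week array. Tnnt3 was 3.17-fold lower, a log2 difference of -1.66 ± 0.08 (SE, n = 3 arrays per age; limma adjusted p 1.03e-07), and Tnni2 was 3.85-fold lower, a log2 difference of -1.94 ± 0.07 (limma adjusted p 1.24e-08). Tnnc2, the calcium-binding subunit of fast fibres, had signals of 13590.5, 15408.2 and 15107 at 36 weeks, against 45754.3, 51464.1 and 46413.8 at 7 weeks. Its fall was 3.26-fold, a log2 difference of -1.70 ± 0.07.

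Actn3, which marks the Z-discs of fast fibres, fell less in size than the fast troponins. Its signals were 2708.2, 2604.6 and 3115.7 at 36 weeks, against 5127.6, 4326.5 and 4934.8 at 7 weeks. The ages did not overlap, and the fall was 1.71-fold, a log2 difference of -0.76 ± 0.11 (limma adjusted p 0.000385). Actn2, the alpha-actinin of all striated fibres and not one of the 10 genes, had signals of 1200.4, 652 and 1013.9 at 36 weeks, against 3031.6, 3051.1 and 2968.7 at 7 weeks, a log2 difference of -1.65 ± 0.19. The difference between Actn3 and the other genes was not tested.

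**Figure D1:**
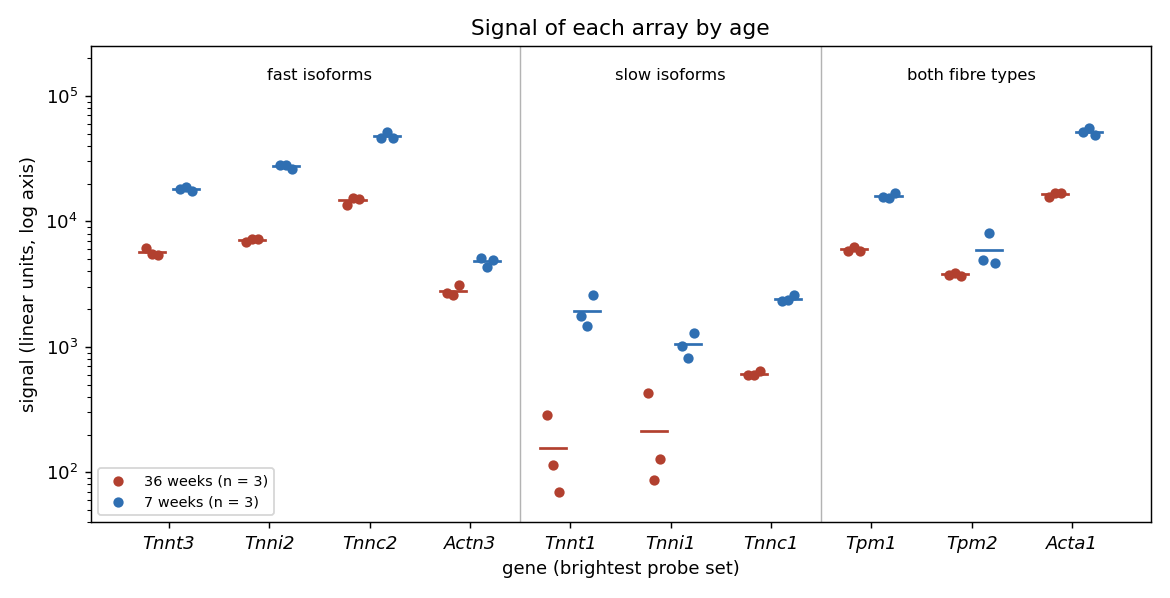
Signal of each of the 3 arrays per age (points; linear units on a log axis) and the mean (bar) for the brightest probe set of each gene, with 36 weeks in red to the left of 7 weeks in blue. The 36-week points of all 10 genes lie below their 7-week points, and Tnnt1 and Tnni1 scatter most at 36 weeks.

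All 3 slow troponin genes fell as well. Tnnt1, slow troponin T, had signals of 286, 115 and 69.2 at 36 weeks, against 1773.3, 1456.9 and 2579.5 at 7 weeks. Tnni1, slow troponin I, had signals of 429.6, 87.1 and 128.7 at 36 weeks, against 1016.3, 820.6 and 1299.4 at 7 weeks. Within 36 weeks the first array was highest for both genes, and within 7 weeks the third was highest and the second lowest. At 36 weeks the Tnnt1 signal stood between percentiles 8.61 and 23.6 of its array and the Tnni1 signal between percentiles 10.2 and 30.9, where the background floor bears on the size of any fold. The log2 difference was -3.36 ± 0.40 for Tnnt1 (limma adjusted p 0.000114) and -2.25 ± 0.48 for Tnni1 (limma adjusted p 0.00469). With all 22626 probe sets tested and no filter, the adjusted p was 0.000423 for Tnnt1 and 0.00906 for Tnni1. With an offset of 1 in place of 50 the difference of Tnnt1 was -3.83 and that of Tnni1 -2.60. Leaving out each array in turn gave -3.78 to -3.04 for Tnnt1 and -2.78 to -1.88 for Tnni1.

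Tnnc1, the troponin C of slow fibres and heart, varied less between arrays. It had signals of 595.7, 598.8 and 639.8 at 36 weeks, against 2320.3, 2350.6 and 2592.4 at 7 weeks. The 3 arrays of each age lay close together and far from those of the other age. The fall was 3.96-fold, a log2 difference of -1.90 ± 0.14 (limma adjusted p 3.94e-06).

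Whether the fast and the slow form of a subunit changed unequally was tested with the log2 of the fast over the slow signal on each array. The levels of 2 probe sets cannot be compared with each other, so only the change of this log2 ratio between ages is read. For troponin T the log2 ratio was 4.20, 5.08 and 5.51 at 36 weeks, against 3.30, 3.63 and 2.74 at 7 weeks. All 36-week arrays were above all 7-week arrays, and the means were 4.93 ± 0.66 at 36 weeks and 3.22 ± 0.45 at 7 weeks (SD, n = 3 each), a difference of 1.71 ± 0.46 (SE). The exact permutation test, two-sided, gave p = 0.1, the smallest value it can give for 3 arrays against 3, and 0.3 after Benjamini-Hochberg adjustment over the 3 subunits. It rests on the dim 36-week signal of Tnnt1, and ranged between 1.42 and 2.16 over the alternatives.

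For troponin I the log2 ratio of Tnni2 over Tnni1 was 3.84, 5.74 and 5.36 at 36 weeks, against 4.73, 5.01 and 4.28 at 7 weeks. The ages overlapped, with a difference of 0.31 ± 0.62 (SE; exact permutation p = 0.7, adjusted 0.7), and without the second array of 36 weeks the difference was -0.07. For troponin C the log2 ratio of Tnnc2 over Tnnc1 was 4.40, 4.57 and 4.46 at 36 weeks, against 4.27, 4.42 and 4.14 at 7 weeks. The difference was 0.20 ± 0.10 (SE; exact permutation p = 0.2, adjusted 0.3). For troponin I and C the ages overlapped. No subunit could reach the threshold with these numbers of arrays, so this test leaves it undecided whether fast and slow forms changed unequally.

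**Figure D2:**
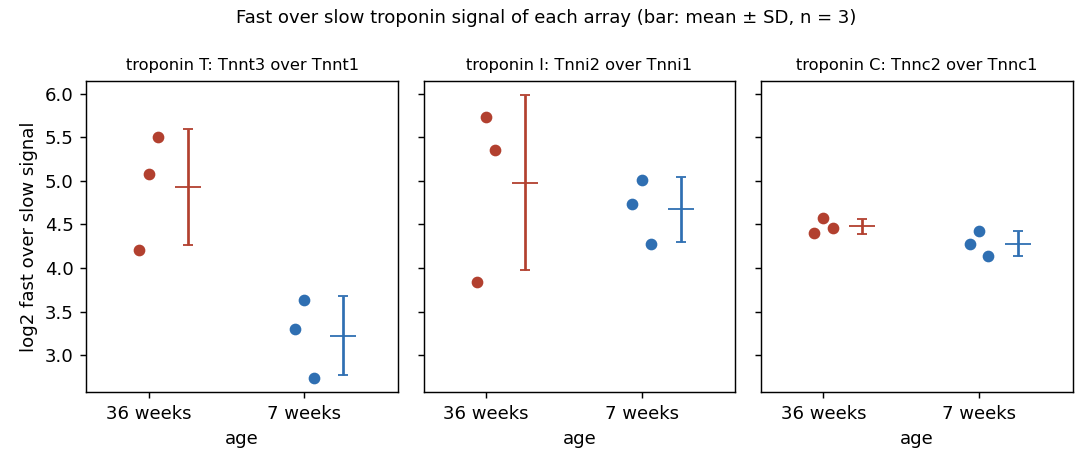
The log2 of the fast over the slow signal on each array (points) with the mean ± SD (bars, n = 3), 36 weeks left of 7 weeks, for troponin T, I and C. For troponin T all 36-week arrays (4.20 to 5.51) lie above all 7-week arrays (2.74 to 3.63), while for troponin I and C the ages overlap.

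Acta1, the actin of the skeletal muscle thin filament, was bright at both ages. Its signals were 15736.6, 16720.5 and 16923.2 at 36 weeks, against 51480.3, 55213 and 48902.6 at 7 weeks. Its log2 difference was -1.65 ± 0.07 (limma adjusted p 3.63e-08), close to those of Tnnt3 and Tnnc2.

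Tpm1 and Tpm2 each had several probe sets, which differed in size of change. The brightest of Tpm1, alpha tropomyosin, had signals of 5789.3, 6251.9 and 5856.1 at 36 weeks, against 15532.6, 15421.1 and 16743.2 at 7 weeks, a log2 difference of -1.41 ± 0.07. A second Tpm1 probe set had 2418.9, 2811.7 and 3241.6 at 36 weeks, against 3051.6, 3577.3 and 3008.2 at 7 weeks, and another had 163.6, 505.1 and 841.4 at 36 weeks, against 836.4, 772.8 and 647.9 at 7 weeks. Both overlapped between ages and did not pass, with log2 differences of -0.19 ± 0.13 and -0.76 ± 0.46 (limma adjusted p 0.291 and 0.233). When the log2 values of the 3 were averaged, the difference of Tpm1 was -0.78.

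For Tpm2, beta tropomyosin, all 4 probe sets passed in the direction of lower but differed in size. The brightest had 3715, 3897.9 and 3700.2 at 36 weeks, against 4921.4, 8017.7 and 4655.8 at 7 weeks, a log2 difference of -0.59 ± 0.17 (limma adjusted p 0.0246). The second array of 7 weeks stood above the other arrays of its age, and without it the difference was -0.34. The call was lost when any array of 36 weeks was left out (adjusted p between 0.0533 and 0.0605) and with eBayes without the intensity trend (adjusted p 0.0744). A second probe set had 650.8, 997.4 and 850.6 at 36 weeks, against 3757.7, 4116.4 and 3079.8 at 7 weeks, with a difference of -2.08 ± 0.17 (limma adjusted p 8.50e-06). Its name ends in _x_at, which marks probe sets that can bind related transcripts. The remaining pair had differences of -0.83 ± 0.11 and -0.70 ± 0.22, and the ages overlapped for the last of these, whose limma adjusted p of 0.0302 was lost with 7 of the alternatives. Averaged over its 4 probe sets, Tpm2 had a difference of -1.05. The files do not state which splice forms each probe set covers.

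Tnni2 also had more than 1 probe set. Its second, an _x_at set, had 4314, 4757 and 4559.1 at 36 weeks, against 12411.2, 12394.1 and 11194.4 at 7 weeks, a log2 difference of -1.39 ± 0.08, smaller in size than that of its brightest. The last of the 3 was too dim to be tested, with 53.1, 153 and 147.2 at 36 weeks, against 83.3, 70 and 83.5 at 7 weeks. The remaining 7 genes had 1 probe set each, so no second reading of them exists on this array.

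**Figure D3:**
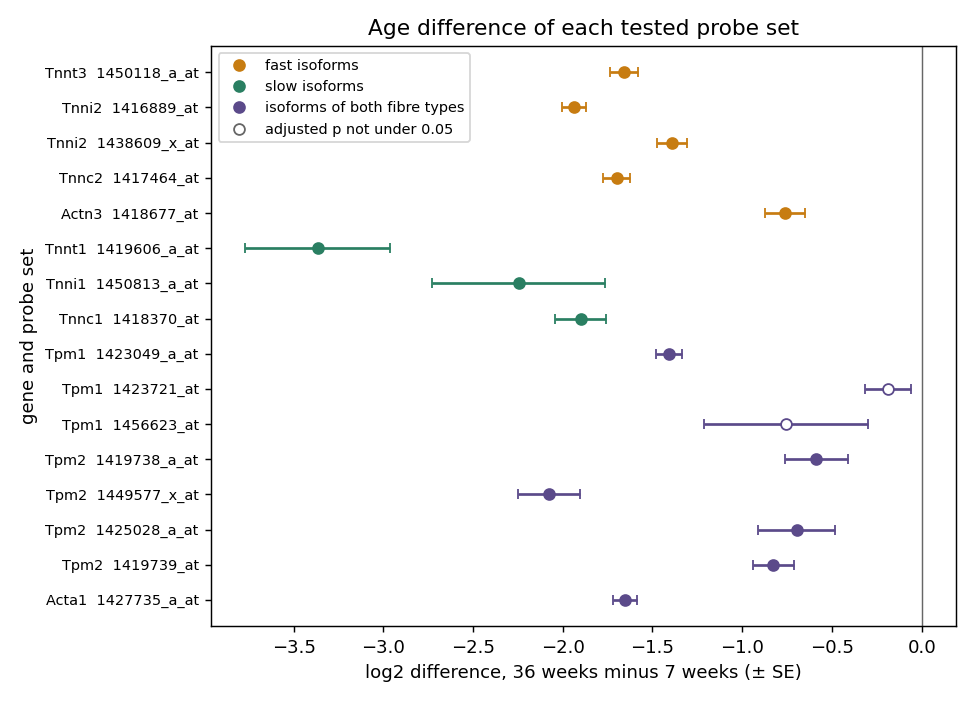
The log2 difference, 36 weeks minus 7 weeks, of each of the 16 tested probe sets (points, ± SE from limma, n = 3 arrays per age), coloured by fibre type. All lie below 0, from -3.36 (Tnnt1) to -0.19 (a second Tpm1 probe set), and the 2 open points, both of Tpm1, did not pass the threshold.

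Of the paralogs not limited to skeletal muscle, 3 of 8 tested genes were lower, 4 were higher and 1 did not pass, with a median log2 difference of -0.04. Acta2, smooth muscle actin, fell by 0.77 ± 0.09, and the alpha-actinins of non-muscle cells, Actn1 and Actn4, fell by 0.64 ± 0.10 and 0.43 ± 0.09. Actb, the cytoskeletal beta actin, rose by 0.71 ± 0.09. The other members that passed as higher were Tpm3, Tpm4 and Actg1, with log2 differences of 0.31, 0.33 and 0.30. These did not pass with arrays centred on their median or scaled to Actb, Gapdh and Ppia. Both steps move all differences down. Tpm3 encodes tropomyosin of slow skeletal fibres as well as cytoskeletal forms. The probe sets of Acta2 and Actg1 end in _s_at and can bind related actins. Cardiac troponins Tnnt2 and Tnni3 were too dim to be tested, with Tnni3 at 65.8 to 92 at 36 weeks, against 60.4 to 66.8 at 7 weeks.

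Most other sarcomere genes tested were lower. Of 14 tested thin filament and Z-disc genes outside the 10, 11 were lower, 0 were higher and 3 did not pass, with a median of -1.01. Among those 3, the capping protein subunits Capza2 and Capzb had differences of 0.16 and 0.13, Capzb passed as higher under quantile normalization, and both differences were below 0 (-0.0035 and -0.033) when scaled to Actb, Gapdh and Ppia. Tcap, the titin cap, had a log2 difference of -1.91 ± 0.10, Myot, myotilin, one of -1.61 ± 0.12, Myoz2, calsarcin of slow and cardiac fibres, one of -1.61 ± 0.15, and Cryab, a small heat shock protein of the Z-disc, one of -1.24 ± 0.09. Of 11 thick filament genes 10 were lower, 0 were higher and 1 did not pass, with a median of -1.80. Among them Myh7, Myl2, Myl3 and Myom2 had 36-week means of 461.4, 550.6, 24.6 and 447.7, under the filter signal of 593.6. They were tested through their 7-week signal, so their place among the tested ones already required a difference. Mylpf and Myl1, light chains of fast myosin, had differences of -2.32 ± 0.09 and -3.12 ± 0.14, and the fast heavy chains Myh4 and Myh1 had -1.58 ± 0.07 and -1.22 ± 0.07. The probe set of Myh1 ends in _x_at and that of Myl3 in _s_at, and both can bind related transcripts. In a list of 12 skeletal muscle markers outside the 10 genes all 12 were lower, with a median of -1.30. This list shares Mylpf, Myl1, Myh4 and Myh1 with the thick filament list, so the 2 lists are not separate readings.

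Myogenic transcription factors were mostly dim, 5 of 11 being bright enough to be tested. Of these 5, 2 were lower, 0 were higher and 3 did not pass, with a median of -0.24. Mef2c and Mef2a, which bind the MEF2 site, fell by 0.80 ± 0.12 and 0.61 ± 0.11. Six4, Mef2d and Srf, the serum response factor, had differences of -0.24, 0.19 and -0.08 and did not pass. Myod1, the myoblast determination factor, had signals of 522.9, 490.5 and 193.6 at 36 weeks, against 818.6, 521.8 and 707 at 7 weeks. These signals of Myod1 overlapped between ages, as did those of the untested Myf5, Myog and Pax7. Eya1 and Myf6, also too dim to be tested, were lower on every 36-week array. Eya1 had 59.8, 62.6 and 62.6 at 36 weeks, against 852.4, 890 and 468.2 at 7 weeks. Myf6 had 91.7, 68.7 and 69 at 36 weeks, against 409.2, 256 and 143.5 at 7 weeks. With no filter the limma adjusted p was 0.000692 for Eya1 and 0.0553 for Myf6.

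**Figure D4:**
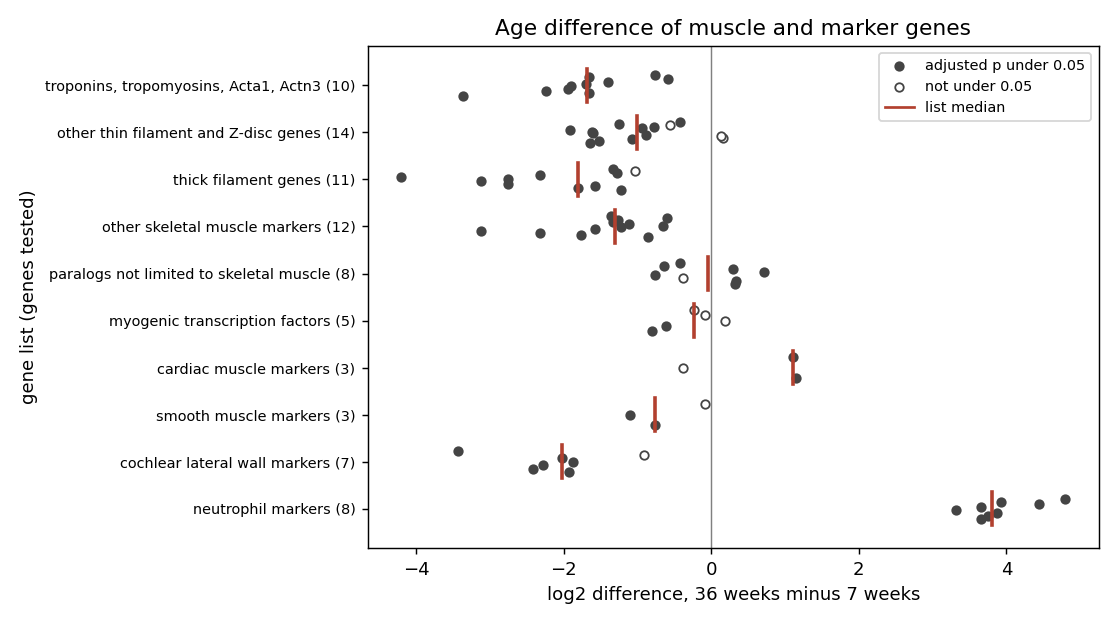
The log2 difference, 36 weeks minus 7 weeks, of every tested gene (points; brightest probe set) in lists of muscle and marker genes, with filled points past the threshold and a red line at the median. The median of the 10 genes is -1.68, that of the thick filament genes -1.80 and that of the other skeletal muscle markers -1.30. The thick filament and skeletal muscle marker lists share Mylpf, Myl1, Myh4 and Myh1. Cochlear lateral wall markers have a median of -2.03. Medians are above 0 for neutrophil markers (3.81) and for cardiac muscle markers (1.11, from 3 tested genes of 8, of which 2 passed).

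The labelled tissue was present by its markers, and the summed signals of the marker lists differed between ages. Cell numbers were not measured. The summed signal of 7 cochlear lateral wall markers, among them Otos and Coch, was 48936 to 49869 at 36 weeks, against 208108 to 216407 at 7 weeks, and 6 of 7 were lower. The summed signal of 8 neutrophil markers, among them S100a9 and Ltf, was 661787 to 705544 at 36 weeks, against 46360 to 52046 at 7 weeks, and 8 of 8 were higher. For the 12 skeletal muscle markers outside the 10 genes, among them Mylpf, Myl1, Myh4 and Myh1 of the thick filament list, the sums were 110623 to 114659 at 36 weeks. At 7 weeks they were 270496 to 282725. For 7 smooth muscle markers, among them Tagln and Acta2, the sums were 10634.6 to 12030.2 at 36 weeks, against 17968 to 19740 at 7 weeks, with 2 of 3 tested genes lower. Acta2, read from an _s_at set that can bind related actins, alone had means of 6839.2 at 36 weeks and 11687.6 at 7 weeks. Smtn did not pass, and the untested Actg2 and Lmod1 overlapped between ages. Of the other untested ones, Myh11 was lower and Cnn1 higher on every 36-week array. For 8 cardiac markers the sums were 3948.9 to 5563.2 at 36 weeks, against 2924.7 to 3339.9 at 7 weeks, with Ryr2 and Nppb higher among 3 tested. All the other cardiac markers overlapped between ages, namely Actc1, which did not pass, and the untested Myh6, Myl7, Tnnt2, Tnni3 and Nppa. Kcne1, a lateral wall marker, passed the filter through its 7-week signal (36-week mean 121.7) and Nppb through its 36-week signal (7-week mean 416.5). No marker was listed at 0 on any array, and the part of these differences in the falls of the 10 genes was not tested. In whole-tissue RNA, fewer muscle fibres in a sample and less RNA per fibre cannot be told apart.

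The arrays had been brought to a common trimmed mean, so every value is relative to the rest of the array. Of all calls, 51.4% were in the direction of lower, against 64.0% when arrays were centred on their median and 70.3% when scaled to Actb, Gapdh and Ppia. The last of these scalings placed the median of all tested probe sets at -0.14 and that of the 10 genes at -1.84. The 10 brightest probe sets passed as lower under quantile normalization and under both of these scalings. Each of the scalings moved all differences down by the same amount, which makes passing as lower easier. Of the scaling genes, Actb was itself higher at 36 weeks (0.71) and Gapdh lower (-0.16, limma adjusted p 0.0498), while Ppia did not pass.

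The genes whose profile over the 6 arrays was nearest to the mean profile of the 10 were found among 8545 other genes by the root mean square difference of centred log2 signals. They were Ahcyl2, a relative of an inositol trisphosphate receptor regulator, at 0.04, Map2k6, a kinase that activates p38, at 0.08, Myoz2 at 0.09, Mb, the oxygen-storing myoglobin of muscle, at 0.09 and Art3, of the ADP-ribosyltransferase family, at 0.10. Ahcyl2 had signals of 7491.7, 6438.5 and 6933 at 36 weeks, against 22534.2, 22228.7 and 24078.2 at 7 weeks. Its fall was 3.30-fold. Among the 10 genes themselves Tnnt3 was nearest to their mean profile, at 0.06, and Tnnt1 was farthest, at 0.92. The difference between ages sets most of this measure.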

How the data were processed

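Per the labels' protocols, total RNA was isolated with TRIzol, converted to biotin-labelled cRNA and hybridised to Affymetrix arrays. The deposited values are intensity values, linear signals of 1 colour per probe set; the summarisation software was not given in the sources used here. The trimmed mean (2% to 98%) lay between 1489.77 and 1492.5 on all 6 arrays and medians between 766.3 and 859.35. Gene names came from the platform annotation, with 20380 probe sets having 1 symbol, 691 with several and 1555 with none.

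The log2 of each signal plus 50 was analysed, so changes of dim probe sets are understated. Folds are ratios of the mean signals without this offset, so a fold and its log2 difference need not match exactly. Probe sets with a mean signal above the 40th percentile (593.6) were tested with limma 3.58.1 in R 4.3.3 (lmFit, eBayes with intensity trend), 36 weeks minus 7 weeks, unpaired. A gene was led by its brightest tested probe set. Figures used matplotlib 3.10.9. The fit and the motif search were tested on simulated data.

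All probe sets of the 10 genes are covered, in the text without their identifiers. Of other lists, the 4 genes (pathways) or 2 genes (markers) of smallest p are named, and the 5 nearest profiles. Values were already known when Actn2, Tpm3, Tpm4, Actg1, Tnnt2, Tnni3, Myod1, Capza2, Capzb, Myh7, Myl2, Myl3, Myom2, Srf and Kcne1 were picked for mention. The same holds for Eya1, Myf5, Myf6, Myog, Pax7, Smtn, Actg2, Lmod1, Myh11, Cnn1, Actc1, Myh6, Myl7 and Nppa. The 10 genes and all lists were chosen with earlier results of these data known. Same-numbered samples were not paired: their deviations correlated by 0.05, -0.01 and -0.00.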

Additional observations from a re-analysis of the deposited data

How the results depend on the processing

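The alternatives were offsets of 1 and 16, quantile normalization, median centring, scaling to Actb, Gapdh and Ppia (for Gapdh and Ppia through probe sets shared with pseudogenes), a stricter filter (60th percentile) or none, eBayes without trend, a block for the replicate number, 1 array left out at a time, the mean of a gene's probe sets and, chosen after seeing the data, a filter on the mean log2 signal. All differences of the 10 genes kept their direction. With the filter at the 60th percentile or on the mean log2 signal, Tnnt1 and Tnni1 were no longer tested, which left 1 slow gene called. The probe sets called higher numbered 2267 in all and 1503 when scaled to Actb, Gapdh and Ppia. The Tpm2 call (-0.59) was lost without the trend, and its difference was -0.73 to -0.34 with 1 array left out. The fast minus slow difference of troponin I was -0.072 to 0.88 with 1 array left out, the -0.072 being without the second array of 36 weeks, and that of troponin C was 0.38 under quantile normalization. Of the paralogs, 4 were higher, against 1 with median centring, with scaling to the 3 genes or without trend, and 2 to 3 with 1 array left out (2 without the second array of 36 weeks, the third of 36 weeks or the first of 7 weeks). Of the thin filament genes 1, Capzb, was higher under quantile normalization and with the mean of probe sets. Of the cardiac markers 1 was higher, against 2, with the filter at the 60th percentile, and 1 to 2 with 1 array left out (1 without the first array of 36 weeks). With the replicate number as a block, 2254 probe sets were lower and 2121 higher, all 10 genes stayed past the threshold, and the call of the Tpm2 probe set whose ages overlapped (-0.70) was lost (adjusted p 0.0580). Dim signals at 36 weeks limit the sizes given for Tnnt1 and Tnni1.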

Other observations

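Slow myosin genes, the thick filament partners of the slow troponins, were low at 36 weeks as well. Myh7, the slow heavy chain, had signals of 313.3, 498.9 and 572 at 36 weeks, against 3869.2, 3324.3 and 2808.5 at 7 weeks, a log2 difference of -2.75 ± 0.22 (SE, n = 3 arrays per age). Myl2, a light chain of slow and cardiac myosin, had 619.5, 414.3 and 617.9 at 36 weeks, against 4002.5, 3997.9 and 3805 at 7 weeks, with the same difference of -2.75 ± 0.17. Myl3, the other slow light chain, had 36.7, 19.9 and 17.1 at 36 weeks, against 1316.7, 1512.9 and 1139.4 at 7 weeks, which leaves only a dim trace at 36 weeks. The 36-week means of Myh7, Myl2 and Myl3 were under the filter signal. These genes were tested through their 7-week signal, so being tested already required a difference. The third array of 7 weeks was the lowest of its age for Myh7, Myl2 and Myl3, whereas it was the highest for Tnnt1, Tnni1 and Tnnc1. The first array of 36 weeks was the highest of its age for Tnnt1, Tnni1, Myl2 and Myl3 and the lowest for Tnnc1 and Myh7.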
